A study of Mus musculus with 931 samples.

Results

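This section compares bulk RNA sequencing libraries of mouse pancreatic β cells taken at birth (P0, the day of birth) with libraries taken before birth, at the embryonic stage E17.5. The members are the 2 P0 and the 2 E17.5 libraries of the deposited bulk count table, 4 of its 14 libraries and of 931 samples in all. The other 10 bulk libraries, 2 each at P3, P9, P15, P18 and P60, entered the same model only to estimate the spread between libraries. All 4 libraries came from pancreas of Ins1-RFP mice, in which a red fluorescent reporter is tied to the insulin 1 gene, and the background of the colony is a mix of C57BL/6 and C3H. β cells were sorted on that red fluorescence, and RNA of a pool of sorted cells, of a size the labels give only approximately, went into a poly(A)-selected, strand-specific library. No treatment and no other allele is given for either stage. The labels do not give the number of animals pooled in a library, or say that replicates came from separate litters, so p-values here measure the spread between these libraries, which may be technical.

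β cells are the insulin-secreting cells of the pancreatic islet. They form from endocrine progenitors that switch on Neurog3, and in the fetus they already make insulin at a high rate, which loads the endoplasmic reticulum (ER), where proinsulin is folded with the help of chaperones. Birth ends the supply of maternal glucose, starts feeding with fat-rich milk, and comes after a surge of adrenal glucocorticoid hormone, whose receptor is a transcription factor. Most cells also hold a circadian clock, in which Clock and Arntl drive their own repressors and a set of output genes through a short DNA element called the E-box.

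The 4 libraries held 19.3 M and 10.3 M gene reads at P0, and 15.8 M and 13.0 M at E17.5, in a range of 10.3 M to 21.4 M over all 14. Levels are gene counts divided by library size (CPM) and scaled with TMM factors, which correct for differences in RNA composition, and they are not divided by gene length. As the label of β cells implies, Ins1 and Ins2 were among the most abundant genes, and together they took 7.85% and 9.13% of gene reads at P0, against 8.06% and 7.99% at E17.5. Ins1 was tied to the sort and its level is therefore no independent check. Replicates of a stage differed by more than sampling noise, with a chi-square per gene of 41.4 between the P0 libraries and 26.9 between the E17.5 libraries.

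Cells other than β cells left RNA in the libraries, and the amount moved with stage. The summed level of 20 genes of acinar cells, which make digestive enzymes, was 313 and 1131 CPM at P0, against 7364 and 2181 CPM at E17.5. The 10 mesenchymal markers summed to 558 and 1384 CPM at P0 and to 120 and 234 CPM at E17.5, and endothelial markers to 219 and 77.0 CPM at P0 and to 62.4 and 54.9 CPM at E17.5. Immune markers summed to 283 and 121 CPM at P0 and to 70.2 and 66.8 CPM at E17.5. In each of these 4 lists the stages did not overlap. In bulk libraries fewer cells of a type and less RNA per cell cannot be told apart. Xist, transcribed in cells of female animals, had 242 and 1.56 CPM at P0 and 609 and 517 CPM at E17.5, so the second P0 library was nearly without it.

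Between birth and E17.5, 479 of 16086 genes tested were higher at P0 (2.98%) and 541 were lower (3.36%), by edgeR's quasi-likelihood test at a Benjamini-Hochberg adjusted p under 0.05. These 2 shares are the background for the counts of called members given for each list below. The change was more than 2-fold in 302 of the higher and 225 of the lower genes, and more than 4-fold in 107 and 50 of them. The median log2 change was 1.19 among genes called higher, -0.92 among genes called lower, and 0.03 over all genes tested. All 1020 called genes had libraries of the stages that did not overlap, as had 59.3% of all genes tested. All 1020 also kept their direction when any 1 of the 4 libraries was left out. Libraries that do not overlap all but fix that outcome, so it is no separate check of direction.

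The number of calls rested on all 4 libraries. Without P0 replicate 1 the fit called 31 genes higher and 6 lower, and without P0 replicate 2 it called 323 and 367. Without E17.5 replicate 1 it called 4 and 4, and without E17.5 replicate 2 it called 2 and 3. Only 3 genes were called in the full fit and in each of these 4 fits, and all 3 are named here after their values were seen. They are Pfkp, the platelet form of the glycolytic enzyme phosphofructokinase, Ogdhl, a relative of a subunit of the mitochondrial oxoglutarate dehydrogenase, and Cd200, a cell surface glycoprotein. With the acinar level of each library added as a covariate the fit called 3 genes higher and 0 lower, with 1736 genes at an unadjusted p under 0.05, while all 1020 genes kept their direction and 770 of them had an unadjusted p under 0.05. The acinar level itself moved with stage, so this covariate fit cannot tell the 2 apart. DESeq2 called 1023 genes higher and 905 lower.

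Pfkp had 25.2 and 27.5 CPM at P0, against 3.60 and 2.87 CPM at E17.5. The P0 libraries were both far above the E17.5 ones and close to each other, and the log2 change was 3.02 (SE 0.22, adjusted p = 0.000193). Its exons overlap those of Pitrm1. Ogdhl had 347 and 353 CPM at P0, against 108 and 110 CPM at E17.5, with a log2 change of 1.68 (SE 0.13, adjusted p = 0.000193). Cd200 went the other way, with 34.3 and 36.6 CPM at P0, against 103 and 88.6 CPM at E17.5, and a log2 change of -1.44 (SE 0.15, adjusted p = 0.00319). No other member of the glycolysis list passed the test, which left 1 of 16 higher and 0 lower.

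**Figure D1:**
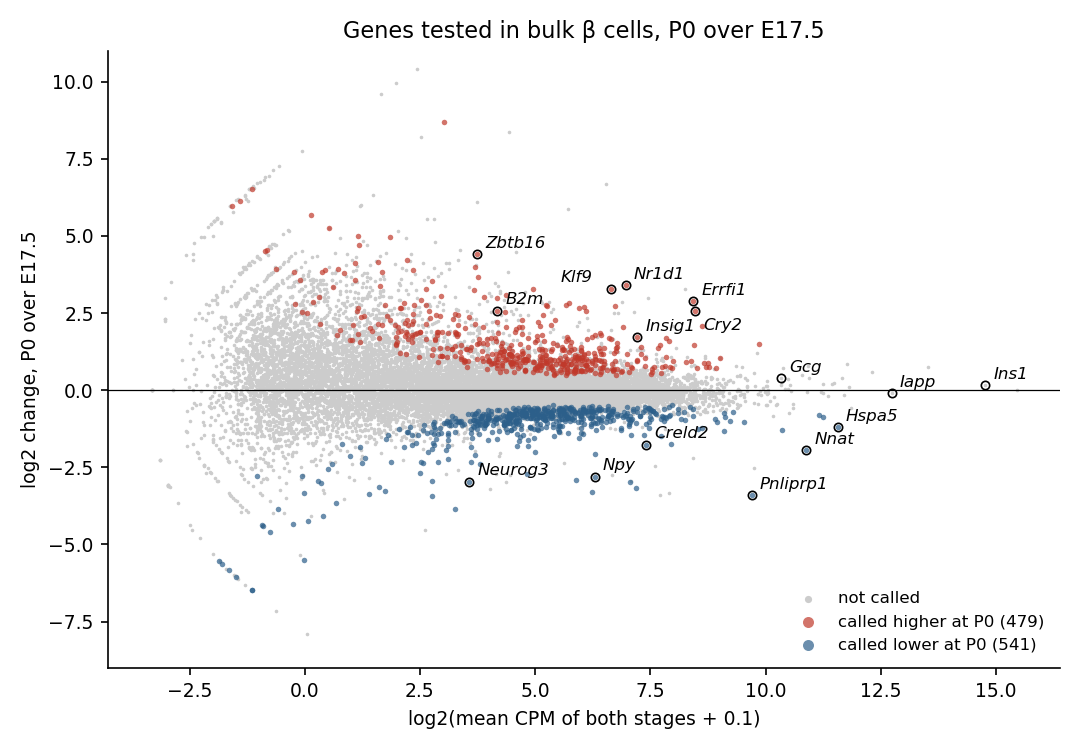
Each point is 1 of the 16086 genes tested, with the log2 of its mean CPM over both stages plus 0.1 on the horizontal axis and its log2 change, P0 over E17.5, on the vertical axis. Red points are the 479 genes called higher at P0 and blue points the 541 called lower. The hormone genes Ins1, Iapp and Gcg lie at the right near 0, while Klf9 and Nr1d1 stand above 3 and Neurog3 and Npy below -2.

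Circadian clock genes were the pathway list with the most genes higher at P0. Of 18 members tested, 10 rose and 0 fell, with a median log2 change of 1.44. The 10 genes were repressors and output factors of the clock and the activating receptor Rora, and the drivers Arntl and Clock did not pass the test. Arntl had 16.7 and 17.7 CPM at P0 and 13.5 and 17.6 CPM at E17.5, and Clock had 107 and 139 CPM at P0 and 158 and 144 CPM at E17.5 (adjusted p = 0.756 and 0.371). The hour at which tissue was taken is not given in the sources used here.

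Nr1d1 (REV-ERBα), a nuclear receptor that represses Arntl, had 223 and 233 CPM in the P0 libraries, against 21.6 and 21.5 CPM in the E17.5 libraries. That made it 10.6-fold higher at birth (log2 change 3.41, SE 0.49, adjusted p = 0.00896). The gene lies at chr11:98767932-98775333 on the minus strand of GRCm38, where its exons overlap those of Thra, and the strand setting of the counting is not stated, so reads of the overlap cannot be assigned. Its relative Nr1d2 had 160 and 165 CPM at P0 and 65.1 and 47.1 CPM at E17.5, a log2 change of 1.53 (SE 0.27, adjusted p = 0.0148). Rora, which binds the same elements as these receptors and activates from them, had 112 and 125 CPM at P0 and 51.8 and 47.7 CPM at E17.5 (log2 change 1.25, SE 0.16, adjusted p = 0.00589).

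Among the direct repressors of Clock and Arntl, Cry2 had 742 and 480 CPM at P0, against 109 and 96.3 CPM at E17.5. Both P0 libraries were over 4 times the highest E17.5 one, although they differed from each other (log2 change 2.57, SE 0.49, adjusted p = 0.0184). Ciart, a repressor of the same pair, had 28.3 and 21.2 CPM at P0 and 0.72 and 3.28 CPM at E17.5 (log2 change 3.65, SE 0.92, adjusted p = 0.0413). The paralogs Bhlhe40 and Bhlhe41, repressors that bind the E-box themselves, also rose, by 2.21 and 1.57 on the log2 scale (SE 0.48 and 0.21). Per1 stood at 496 and 331 CPM at P0, against 58.9 and 135 CPM at E17.5, without overlap, and missed the threshold (adjusted p = 0.0681). Cry1 and Per2 were close between stages, with log2 changes of -0.27 and 0.22.

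The output factors of the clock that belong to the PAR bZIP family moved together. Dbp had 66.6 and 55.0 CPM at P0, against 10.8 and 11.9 CPM at E17.5 (log2 change 2.42, SE 0.32, adjusted p = 0.00589), and its exons overlap those of Sphk2. Tef had 126 and 121 CPM at P0, against 58.2 and 50.3 CPM at E17.5 (log2 change 1.19, SE 0.21, adjusted p = 0.0143). Hlf was lower throughout, with 9.06 and 8.40 CPM at P0 and 2.60 and 2.12 CPM at E17.5 (log2 change 1.88, SE 0.41, adjusted p = 0.0263). All 3 had both P0 libraries above both E17.5 libraries, as had all 479 genes called higher.

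The E-box used by the clock, CACGTG, was searched in the 250 bases before the start site of RefSeq genes (GRCm38.p6). It stood in 5 of 16 clock genes with a promoter in the table (31.2%), namely Per1, Cry1, Tef, Bhlhe41 and Ciart, and in 6.86% of 27025 genes. Of the 5, 3 were called. The D-box, TTATGNAA searched on both strands, which PAR bZIP factors and Nfil3 bind, stood in Per1 and Per3 (2 of 16 genes, 12.5%), against 3.63% of all genes. The promoter of Ciart is shown because it holds 3 E-boxes, in capitals, within the stretch from 137 to 18 bases before its start, read 5' to 3' on the strand of the gene.
Ciart promoter, chr3:95882246-95882365, - strand: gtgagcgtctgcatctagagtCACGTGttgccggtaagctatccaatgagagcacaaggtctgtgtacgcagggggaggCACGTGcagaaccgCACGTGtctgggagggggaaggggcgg
A match to these letters is a description of the sequence and was not tested as a binding site.

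Some genes that glucocorticoid hormones are known to induce in many tissues were also higher at birth. Of 15 members tested, 5 rose and 0 fell, the log2 change of all 15 was above 0, and the median was 2.09. Hsd11b1, which reactivates the hormone inside cells, was listed but lay below the low-count filter. Per1 counts in both lists, so they are not independent.

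Klf9, a Krüppel-like transcription factor, had 184 and 177 CPM at P0, against 20.4 and 16.4 CPM at E17.5. It was 9.80-fold higher (log2 change 3.29, SE 0.35, adjusted p = 0.00384), and it lies at chr19:23141226-23168134 on the plus strand of GRCm38. The zinc finger factor Zbtb16 had 31.0 and 19.7 CPM at P0 and 1.22 and 1.16 CPM at E17.5, the largest rise among named genes (log2 change 4.41, SE 0.98, adjusted p = 0.0273). Tsc22d3 (GILZ), an anti-inflammatory mediator, had 42.7 and 39.0 CPM at P0 and 10.4 and 13.0 CPM at E17.5 (log2 change 1.81, SE 0.28, adjusted p = 0.0119). In all 3 genes the stages were well apart, and the P0 libraries of Zbtb16 differed most from each other.

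Errfi1, an inhibitor of the EGF receptor, was the most abundant of the called members, with 588 and 633 CPM at P0, against 71.2 and 93.3 CPM at E17.5 (log2 change 2.89, SE 0.62, adjusted p = 0.0253). Lcn2, a secreted carrier of iron-binding molecules, also rose, at a far lower level of 4.55 and 1.82 CPM at P0 and 0.0554 and 0.41 CPM at E17.5. Klf15, another Krüppel-like factor outside the list, had 29.1 and 19.2 CPM at P0 and 1.83 and 1.16 CPM at E17.5 (log2 change 4.00, SE 0.53, adjusted p = 0.00589). The receptor itself, Nr3c1, had 155 and 172 CPM at P0 and 121 and 118 CPM at E17.5 and did not pass the test (adjusted p = 0.0853). Fkbp5, a chaperone partner of the receptor, had 215 and 226 CPM at P0 and 172 and 180 CPM at E17.5 (adjusted p = 0.590). The palindromic glucocorticoid response element, searched on both strands, was found in the same 250-base window of 1 of 13 listed genes, Sgk1, and of 0.44% of all genes.

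**Figure D2:**
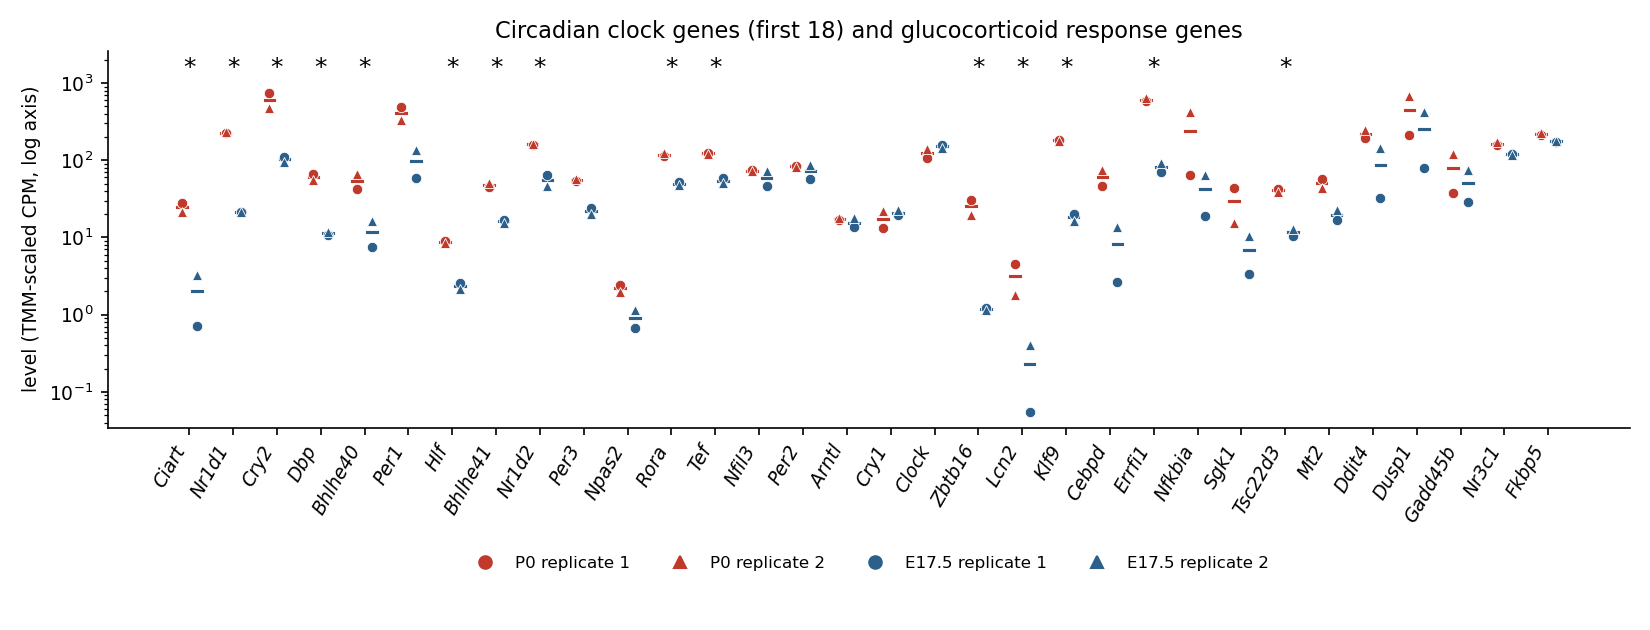
Level of each clock gene (the first 18) and of the other glucocorticoid response genes in the P0 libraries (red, left) and the E17.5 libraries (blue, right), in TMM-scaled CPM on a log axis, with circles for replicate 1, triangles for replicate 2 and a bar at the mean of the 2. Genes run from the largest to the smallest log2 change within each list, and a star marks an adjusted p under 0.05. Ciart, Nr1d1, Cry2 and Dbp stand well apart between stages, while Arntl and Clock do not.

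Genes that depend on sterol supply were partly higher at birth. Of 21 cholesterol synthesis genes 5 rose and 0 fell, with a median log2 change of 0.43. The shares over all genes tested were 2.98% and 3.36%. Insig1, the ER protein that retains the sterol sensor when sterols are ample, had 242 and 212 CPM at P0, against 63.2 and 75.0 CPM at E17.5 (log2 change 1.72, SE 0.26, adjusted p = 0.00991). The enzymes Idi1, Msmo1 and Sc5d rose by 1.15, 1.09 and 0.96 on the log2 scale. Fdps, Mvd and Dhcr7 had log2 changes of -0.04, -0.58 and -0.15, none of them called. The letters TCACNCCAC of a sterol regulatory element stood before 1 of 13 listed genes with a promoter, Hmgcs1, and before 1.22% of all genes.

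Some antigen presentation genes were higher at P0 too. In the list of MHC class I and interferon genes, 6 of 20 rose and 0 fell (median log2 change 1.12). The 6 were the light chain B2m, the heavy chains H2-K1, H2-D1, H2-Q4 and H2-T23, and the peptide transporter subunit Tap2. B2m had 42.5 and 18.7 CPM at P0, against 4.98 and 5.33 CPM at E17.5 (log2 change 2.58, SE 0.48, adjusted p = 0.0180), and H2-K1 had 185 and 250 CPM at P0, against 88.5 and 103 CPM at E17.5 (log2 change 1.18, SE 0.23, adjusted p = 0.0195). The interferon response genes Stat2 and Irf9 had log2 changes of 0.04 and -0.02, and Isg15 stayed under 1 CPM in all 4 libraries. The heavy chain genes are close copies of each other, so reads may be split between them, and immune and endothelial markers were higher at P0 as given above. The part of those cells in these values was not tested in the bulk libraries.

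Of 23 antioxidant genes 3 rose, and 0 fell, against 2.98% and 3.36% of all genes tested. Gclc, the catalytic subunit of the enzyme that limits glutathione synthesis, had 69.7 and 60.1 CPM at P0, against 23.9 and 22.8 CPM at E17.5 (log2 change 1.47, SE 0.16, adjusted p = 0.00485). Fth1, the ferritin heavy chain that stores iron, had 343 and 323 CPM at P0, against 167 and 177 CPM at E17.5 (log2 change 0.95, SE 0.18, adjusted p = 0.0196). The third gene was Hmox1, which degrades haem, with 157 and 58.2 CPM at P0 and 12.5 and 21.7 CPM at E17.5. The first P0 library was the highest for Hmox1 and also for the erythroid, immune and endothelial markers. The summed erythroid level was 246 and 15.9 CPM at P0 and 13.7 and 46.9 CPM at E17.5, so it overlapped between stages, unlike Hmox1. Immune and endothelial markers did not overlap, as given above. The part of blood, immune or endothelial cells in the Hmox1 values was not tested.

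The list of lactogen and serotonin genes, which covers prolactin and growth hormone signalling and the making and breakdown of serotonin, had 2 rises and 1 fall among 14 tested. Over all genes tested, 2.98% rose and 3.36% fell. Socs2, a feedback inhibitor of the prolactin and growth hormone receptors, had 55.5 and 46.1 CPM at P0 and 15.1 and 14.8 CPM at E17.5 (log2 change 1.77, SE 0.24, adjusted p = 0.00734). Matn2, a matrix protein, had 67.1 and 86.0 CPM at P0 and 24.6 and 25.9 CPM at E17.5 (log2 change 1.60, SE 0.25, adjusted p = 0.0119), while the monoamine oxidase Maob fell, with 147 and 163 CPM at P0 and 286 and 272 CPM at E17.5. The prolactin receptor Prlr had 137 and 140 CPM at P0 and 65.0 and 51.3 CPM at E17.5 and missed the threshold (adjusted p = 0.0833). In the single-cell batches described further on Prlr was called higher at P0, with 119, 55.7 and 160 CPM in the P0 batches, against 33.1, 21.0 and 37.3 CPM in the E17.5 batches (log2 change 1.89, adjusted p = 0.0142).

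The remaining large rises were not members of these lists. Thbs1 and Eln, which encode the extracellular proteins thrombospondin 1 and elastin, had log2 changes of 3.29 and 2.84 (SE 0.80 and 0.73, adjusted p = 0.0371 and 0.0441). Eln had 125 and 60.4 CPM at P0 and 5.21 and 20.9 CPM at E17.5, and the mesenchymal markers that make matrix, such as Col3a1, were also higher at P0 (137 and 484 CPM, against 24.8 and 53.8 CPM at E17.5), with a log2 change that was not called. In the single-cell batches described further on, Thbs1 was at 0.0372 CPM or less and Eln at 0.98 CPM or less in every P0 and E17.5 batch. The part of mesenchymal cells in the bulk values of Thbs1 and Eln was not tested. Hpgd, which breaks down prostaglandins, Kcnf1, a modulatory potassium channel subunit, and Fam107a, an actin-associated protein, rose by 3.08, 2.99 and 2.76 on the log2 scale (SE 0.63, 0.74 and 0.72).

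ER folding genes were the list with the most members lower at birth. Of 21 tested, 0 rose and 11 fell, with a median log2 change of -0.84, and the summed level of the list was 11270 and 11020 CPM at P0, against 19614 and 20670 CPM at E17.5. The 11 were the chaperones Hspa5, Hsp90b1, Calr, Dnajb9 and Dnajb11, the disulfide isomerases Pdia4 and Pdia6, the ER proteins Creld2 and Manf, and Syvn1 and Edem1, which serve the degradation of misfolded proteins. Hspa5 (BiP), the main chaperone of the ER lumen, had 1763 and 1889 CPM at P0, against 3870 and 4576 CPM at E17.5 (log2 change -1.21, SE 0.24, adjusted p = 0.0196). Creld2 had 80.4 and 72.7 CPM at P0, against 238 and 284 CPM at E17.5 (log2 change -1.77, SE 0.24, adjusted p = 0.00589). Every called member had both P0 libraries below both E17.5 libraries, as had all 541 genes called lower, so this sets the list apart in no way.

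Of the genes in this list that regulate the chaperones, Xbp1 and Ern1 did not pass the test. Xbp1, the transcription factor that activates many of them, had 267 and 227 CPM at P0 and 224 and 223 CPM at E17.5, and Ern1 (IRE1α), the kinase that splices its RNA, had 218 and 152 CPM at P0 and 165 and 169 CPM at E17.5 (adjusted p = 0.581 and 0.692). Spliced and unspliced Xbp1 are not separate rows of the count table. Of 27 genes of the ATF4 and amino acid response, 1 rose (Vldlr) and 2 fell (Stc2 and Mthfd2). The shares over all genes tested were 2.98% and 3.36%. Stc2, a secreted glycoprotein induced by ER stress, had 2.81 and 6.23 CPM at P0 and 25.1 and 21.2 CPM at E17.5 (log2 change -2.38, SE 0.40, adjusted p = 0.0143). The cytosolic chaperone Hspa8 also fell, with 382 and 413 CPM at P0 and 703 and 890 CPM at E17.5, the 1 call among 12 heat shock genes.

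The ER stress element, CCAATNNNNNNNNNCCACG searched on both strands, stood in the 250 bases before 8 of 19 ER folding genes with a promoter in the table (42.1%), and before 0.13% of all 27025 genes (35 genes). The 8 were Hspa5, Hsp90b1, Pdia6, Calr, Canx, Dnajc3, Creld2 and Syvn1, and 6 of them were called lower. The promoters of 3 are shown, each on the strand of its gene with the element in capitals, because their levels fell together, and in Creld2 the element runs on the opposite strand.
Hspa5 promoter, chr2:34771970-34772089, + strand: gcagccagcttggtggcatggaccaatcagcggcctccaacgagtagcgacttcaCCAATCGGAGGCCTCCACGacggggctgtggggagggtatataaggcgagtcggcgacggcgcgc
Pdia6 promoter, chr12:17266440-17266559, + strand: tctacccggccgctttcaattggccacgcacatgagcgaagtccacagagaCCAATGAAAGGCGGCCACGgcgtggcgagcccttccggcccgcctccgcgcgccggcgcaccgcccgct
Creld2 promoter, chr15:88819469-88819588, + strand: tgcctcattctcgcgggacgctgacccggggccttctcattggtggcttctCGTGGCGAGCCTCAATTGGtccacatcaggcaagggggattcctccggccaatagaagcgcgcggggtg
These letters were chosen because they are the known element of this list, and whether any factor bound them was not measured.

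**Figure D3:**
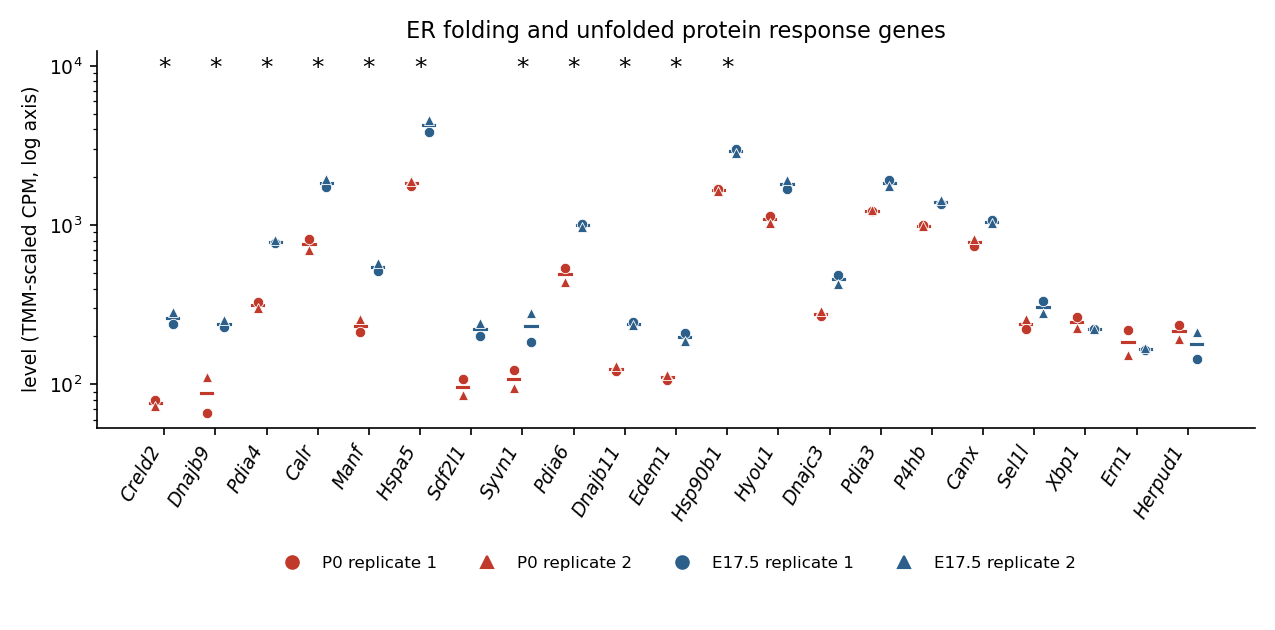
Level of the 21 ER folding and unfolded protein response genes in the P0 libraries (red, left) and the E17.5 libraries (blue, right), in TMM-scaled CPM on a log axis, with circles for replicate 1, triangles for replicate 2 and a bar at the mean of the 2. Genes run from the most negative to the most positive log2 change, and a star marks an adjusted p under 0.05. The 11 starred genes have both P0 points below both E17.5 points, as has every gene called lower. Xbp1, Ern1 and Herpud1 at the right do not.

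Several genes of the immature endocrine state were lower at birth, with 5 of 16 tested falling and 1 rising (median log2 change -0.75). Neurog3, the factor that commits cells to the endocrine lineage, had 2.28 and 3.12 CPM at P0, against 18.9 and 22.9 CPM at E17.5. It was 7.81-fold lower at P0 (log2 change -2.97, SE 0.44, adjusted p = 0.00958), at a low level in both stages, and its exons overlap those of Fam241b. Pax4, a factor of early β cells downstream of it, was below 1 CPM in both P0 libraries and had 4.98 and 6.76 CPM at E17.5 (log2 change -3.28, SE 0.84, adjusted p = 0.0428). The neuropeptide gene Npy had 21.8 and 17.3 CPM at P0, against 144 and 130 CPM at E17.5 (log2 change -2.80, SE 0.52, adjusted p = 0.0176).

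Nnat, an imprinted gene for a small ER membrane protein, was far more abundant, with 751 and 800 CPM at P0, against 2821 and 3186 CPM at E17.5 (log2 change -1.95, SE 0.30, adjusted p = 0.00991). Rbp4, the retinol carrier, fell by 1.26 on the log2 scale (SE 0.34, adjusted p = 0.0496), and it is also a δ cell marker. Sox4 went against the list, with 300 and 424 CPM at P0 and 116 and 124 CPM at E17.5 (log2 change 1.60, SE 0.37, adjusted p = 0.0329). Grb10, an imprinted adaptor that restrains insulin receptor signalling, had 303 and 352 CPM at P0 and 645 and 620 CPM at E17.5 (log2 change -0.95, SE 0.17, adjusted p = 0.0167). With Nnat it made the 2 falls among 21 fetal imprinted and oncofetal genes, of which 1 rose (Plagl1). Over all genes tested, 3.36% fell and 2.98% rose.

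Other named falls were single genes. Slitrk6, a synaptic adhesion protein, had 25.8 and 35.1 CPM at P0, against 143 and 112 CPM at E17.5 (log2 change -2.07, SE 0.26, adjusted p = 0.00589). Foxa3, a forkhead factor of gut and liver, had 3.44 and 6.41 CPM at P0, against 19.2 and 22.3 CPM at E17.5 (log2 change -2.10, SE 0.32, adjusted p = 0.00991). Thap2, a zinc finger protein, fell by 2.33 on the log2 scale (SE 0.51).

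Among the 12 largest falls were genes of digestive enzymes and of a pancreatic ribonuclease, including Pnliprp1, Cpa1, Clps, Cela3b and Rnase1. Pnliprp1, a pancreatic lipase relative, had 64.8 and 225 CPM at P0, against 2357 and 680 CPM at E17.5 (log2 change -3.39, SE 0.73, adjusted p = 0.0253). Of 20 acinar markers 8 fell and 0 rose, with a median log2 change of -2.58. The acinar transcription factor Ptf1a was at 0 reads in the first P0 library and under 2 CPM in the others. The first E17.5 library was the highest and the first P0 library the lowest of the 4 for the enzymes named, and each of the 14 acinar markers whose stages did not overlap had both P0 libraries below the other 12. At the later stages the acinar list summed to between 22779 and 81153 CPM, far above all 4 libraries. The acinar level moved with stage, so the covariate fit cannot tell the 2 apart. The part of acinar cells in the falls given above was not tested.

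The genes that make and release insulin mostly did not pass the test. Of 20 genes of β cell function 0 rose and 1 fell, with a median log2 change of -0.16. Ins1 had 26371 and 32424 CPM at P0 and 27631 and 24745 CPM at E17.5 (log2 change 0.17, SE 0.27, adjusted p = 0.728), and Ins2 had 41208 and 48676 CPM at P0 and 42738 and 46059 CPM at E17.5 (log2 change 0.02, SE 0.27, adjusted p = 0.976). In both the stages overlapped. Iapp, which encodes the co-secreted peptide amylin, had a log2 change of -0.10 (SE 0.19), and the maturity marker Ucn3, still at 28.5 and 25.1 CPM at P0 and 32.2 and 34.1 CPM at E17.5, -0.30 (SE 0.18).

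The exception was Slc2a2 (GLUT2), the glucose transporter of mouse β cells, with 366 and 426 CPM at P0, against 752 and 692 CPM at E17.5 (log2 change -0.87, SE 0.17, adjusted p = 0.0206). Of 18 islet transcription factors 2 fell and 0 rose. Pdx1, which drives pancreas formation and the insulin genes, had 192 and 221 CPM at P0, against 356 and 453 CPM at E17.5 (log2 change -0.97, SE 0.20, adjusted p = 0.0222), and Hnf4a had 31.0 and 38.2 CPM at P0, against 63.4 and 67.5 CPM at E17.5 (log2 change -0.92, SE 0.23, adjusted p = 0.0384). Mafa had 42.2 and 87.1 CPM at P0 and 30.7 and 73.8 CPM at E17.5, with replicate 2 above replicate 1 at both stages, and Nkx6-1 had a log2 change of -0.37 (SE 0.41), neither of them called. Rab3a, a GTPase of secretory vesicles, was the 1 gene of 27 in the secretion machinery that was called (log2 change -0.83, SE 0.18). Over all genes tested, 2.98% were called higher and 3.36% lower, so 1 call in a list of that size is near the background.

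Hormones of other islet cells were present at both stages and were not called. Gcg had 1321 and 1597 CPM at P0 and 1637 and 589 CPM at E17.5, Sst 891 and 1135 CPM at P0 and 1328 and 592 CPM at E17.5, and Ppy 136 and 168 CPM at P0 and 95.4 and 75.9 CPM at E17.5. In Gcg and Sst the second E17.5 library was the lowest of the 4, and the first lay above both P0 libraries. The ghrelin gene Ghrl had 78.3 and 54.1 CPM at P0 and 92.9 and 55.5 CPM at E17.5.

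**Figure D4:**
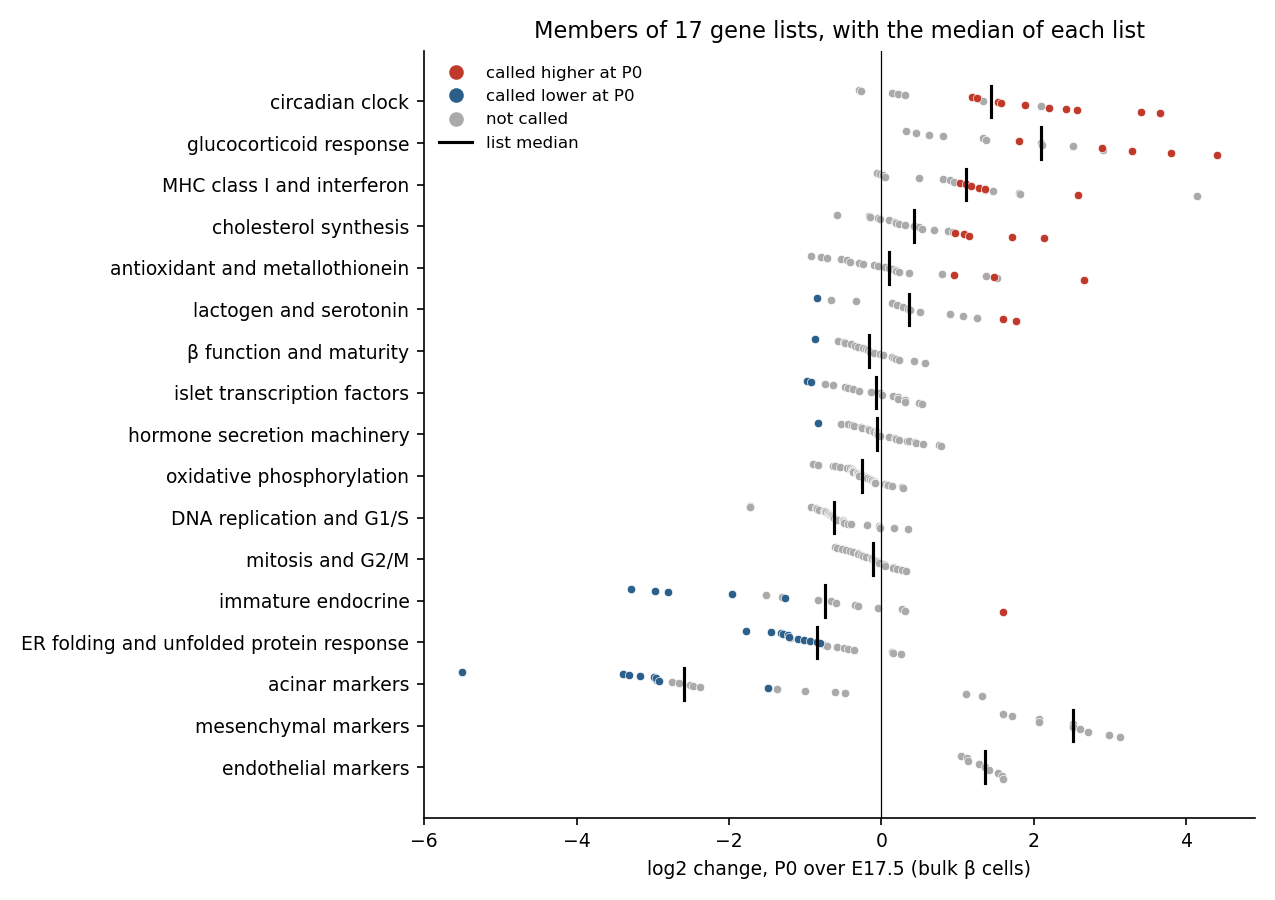
Each point is a tested member of 1 of 17 gene lists, placed by its log2 change, P0 over E17.5, with red for genes called higher at P0, blue for genes called lower, grey for genes not called and a black bar at the list's median. The clock and glucocorticoid lists have medians of 1.44 and 2.09, and the ER folding and acinar lists medians of -0.84 and -2.58. The β function, transcription factor and secretion lists lie around 0, and the mesenchymal and endothelial markers lie above 0 with no called member.

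Metabolic and cell cycle lists held few calls. Of 34 oxidative phosphorylation genes and of 34 cytosolic ribosomal protein genes 0 were called (median log2 changes -0.26 and -0.13). Of 26 genes of fatty acid oxidation and ketogenesis, the mitochondrial carrier Ucp2 rose (227 and 218 CPM at P0, against 146 and 147 CPM at E17.5, log2 change 0.60, SE 0.16, adjusted p = 0.0443), and Eci1 and Cpt2, enzymes of that pathway, fell. Bnip3, a mitochondrial autophagy receptor, rose by 0.87 on the log2 scale (SE 0.13) as the 1 call of 20 hypoxia response genes. Klf11, a Krüppel-like factor, was the 1 call of 18 glucose-responsive genes and rose. Lamp2, a membrane protein of lysosomes, rose by 0.75 on the log2 scale (SE 0.14), and 2 of 25 autophagy and lysosome genes were called. Over all genes tested 2.98% rose and 3.36% fell, so 1 or 2 calls in such lists are near that background.

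Cell cycle genes gave 0 calls among 30 genes of DNA replication and 26 of mitosis. Of the values themselves, 28 of 30 replication genes had a log2 change below 0 (median -0.63), as had 18 of 26 mitosis genes (median -0.11). Mki67, the common marker of cycling cells, had 163 and 155 CPM at P0 and 183 and 101 CPM at E17.5, so the stages overlapped. Cyclin E2 (Ccne2) came nearest to a call, with 6.65 and 4.24 CPM at P0 and 22.2 and 14.2 CPM at E17.5 (adjusted p = 0.0573).

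Immediate early genes, which rise within minutes of stimulation, followed the replicate number more than the stage. Their summed level was 4406 and 14548 CPM at P0, against 2228 and 9616 CPM at E17.5, so replicate 2 was over 3 times replicate 1 at both stages. Fos had 1071 and 3071 CPM at P0, and 632 and 2283 CPM at E17.5. The 1 call among 24 such genes was Fosl2, a slower member of the Fos family, with 112 and 120 CPM at P0 and 25.0 and 45.7 CPM at E17.5 (log2 change 1.71, SE 0.36, adjusted p = 0.0245). The inducible heat shock gene Hspa1a stood out in 1 library, with 65.2 and 5.28 CPM at P0 and 18.4 and 746 CPM at E17.5. Dusp1, Nfkbia and Gadd45b of the glucocorticoid list showed the same split by replicate and were not called.

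Genes that mature β cells keep low, the disallowed genes, were mostly above 0 on the log2 scale in bulk (19 of 21). Their median was 1.15, against 0.03 over all genes tested. The 1 call was Nfia (25.3 and 25.5 CPM at P0, against 13.5 and 9.43 CPM at E17.5). Many of the disallowed genes, such as Pdgfra and Zfp36l1, are abundant in mesenchymal or endothelial cells, whose markers were higher at P0 by a median log2 change of 2.51 and 1.37 with 0 calls. In the single-cell batches described further on, the summed level of the disallowed list was lower at P0. The sum was 113, 104 and 81.5 CPM there, against 129, 123 and 180 CPM at E17.5. Most members did not share that direction, as 8 of 14 tested in single cells were above 0 (median 0.18). The part of mesenchymal and endothelial cells in the bulk values of this list was not tested. The Y-linked genes, Ddx3y and Eif2s3y, were called higher at P0 (105 and 135, and 91.6 and 90.6 CPM, against 57.5 and 47.8, and 40.5 and 34.0 CPM at E17.5), while Xist, lower in both P0 libraries, was not called.

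Single β cells of the same 2 stages gave a second readout from other libraries. Reads were summed over the 71 P0 cells in 3 batches and the 57 E17.5 cells in 3 batches, and 16107 genes were tested in 1 fit of 25 batches with the collection method as a covariate. A further P0 batch, labelled as enriched for proliferative cells, was not used. At P0 23 genes were called higher (0.143%) and 7 lower (0.0435%). In simulated data of this design the test recovered 0% of 2-fold and 0% of 4-fold changes, against 9% and 90% in the bulk design. The simulation gave every gene 1 common spread, unlike the data, so these rates do not carry over. Ucp2, for instance, was called here at a single-cell log2 change of 0.94. DESeq2 called 195 and 87. In these batches the summed acinar level was 29.2, 33.2 and 3.01 CPM at P0, and 48.3, 49.3 and 26.8 CPM at E17.5, and the mesenchymal level was below 9 CPM in all 6.

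Of 452 genes called higher in bulk and tested in single cells, 77.7% had a log2 change of the same sign, as had 78.5% of 530 genes called lower, against 59.5% of all 14406 genes tested in both. In all, 11 genes were called higher in both, 2.3% of the bulk calls and 47.8% of the single-cell calls, among them Klf9, Insig1, Ucp2 and Lamp2. Klf9 had 66.2, 52.5 and 42.8 CPM in the P0 batches, against 23.8, 8.99 and 13.1 CPM in the E17.5 batches (log2 change 1.97, adjusted p = 0.0217). Insig1 had 105, 91.0 and 120 CPM in the P0 batches, against 12.4, 35.6 and 19.5 CPM in the E17.5 batches (log2 change 2.32, adjusted p = 0.00221). Another 5 genes were called lower in both, among them Atp2a2 (SERCA2), the pump that fills the ER with calcium, with 1714 CPM on average at P0 and 3128 CPM at E17.5 in bulk (log2 change -0.87, SE 0.19, adjusted p = 0.0263) and a single-cell log2 change of -1.07.

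The lists behaved alike in sign in both readouts for the clock and ER folding genes. All 10 clock genes called in bulk had a single-cell log2 change above 0, and the summed level of the list was 651, 572 and 537 CPM in the P0 batches, against 316, 402 and 293 CPM in the E17.5 batches. All 11 ER folding genes called in bulk were below 0 in single cells, and the list summed to 11895, 6212 and 8766 CPM at P0, against 13353, 13854 and 14846 CPM at E17.5. The MHC class I list summed to 483, 542 and 471 CPM at P0, against 250, 369 and 348 CPM at E17.5. The glucocorticoid list had a single-cell median of 0.54, with 10 of 13 members above 0. Its sums overlapped, with 1111, 835 and 443 CPM at P0, against 420, 582 and 380 CPM at E17.5. The immediate early list differed in sign, with a median of 0.91 in bulk and -0.70 in single cells, where 17 of 23 members were below 0. No clock, ER folding or MHC gene passed the single-cell test by itself.

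Both cell cycle lists had medians of opposite sign in the 2 readouts. All 30 DNA replication genes had a single-cell log2 change above 0 (median 1.57), against a bulk median of -0.63, and the list summed to 382, 279 and 1840 CPM in the P0 batches, against 201, 224 and 376 CPM in the E17.5 batches. The sums of the stages overlapped. All 26 mitosis genes had a single-cell log2 change above 0 (median 4.52), against a bulk median of -0.11, and 1 of them, Cenpe, was called. The mitosis list summed to 534, 138 and 1819 CPM in the P0 batches, against 15.7, 28.7 and 63.9 CPM in the E17.5 batches, so the batches of a stage varied widely and the highest was the P0 batch of 9 cells picked by hand. Whether the 2 readouts differ was not tested. Most genes called in bulk kept their sign in single cells, as given above, but some named ones did not. Slc2a2 and Mthfd2, called lower in bulk, had single-cell log2 changes of 0.06 and 1.49. Gclc, called higher in bulk, had one of -0.27. None of the 3 was called in single cells. Neurog3 had a single-cell log2 change of -0.24 at levels of 1.34 CPM or less.

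Levels at the later stages placed the values at birth in time, as a description, since they share the P0 libraries with the comparison above. Errfi1 was at 588 and 633 CPM at P0 and at 134 and 84.0 CPM at P3, and Cry2 was at 742 and 480 CPM at P0 and at 112 and 118 CPM at P3, so both stood at P3 near their E17.5 levels. Klf9 was at 63.7 and 47.7 CPM at P3 and was at most 123 CPM in any later library. Hspa5 was at 3546 and 3415 CPM at P3, between its P0 and E17.5 levels, and Pdx1 at 450 and 450 CPM at P3 was within the range of its E17.5 libraries. Nnat, Neurog3 and Npy stayed below their E17.5 levels in every later library. Ucn3 first stood apart from both stages at P3, with 105 and 133 CPM.

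**Figure D5:**
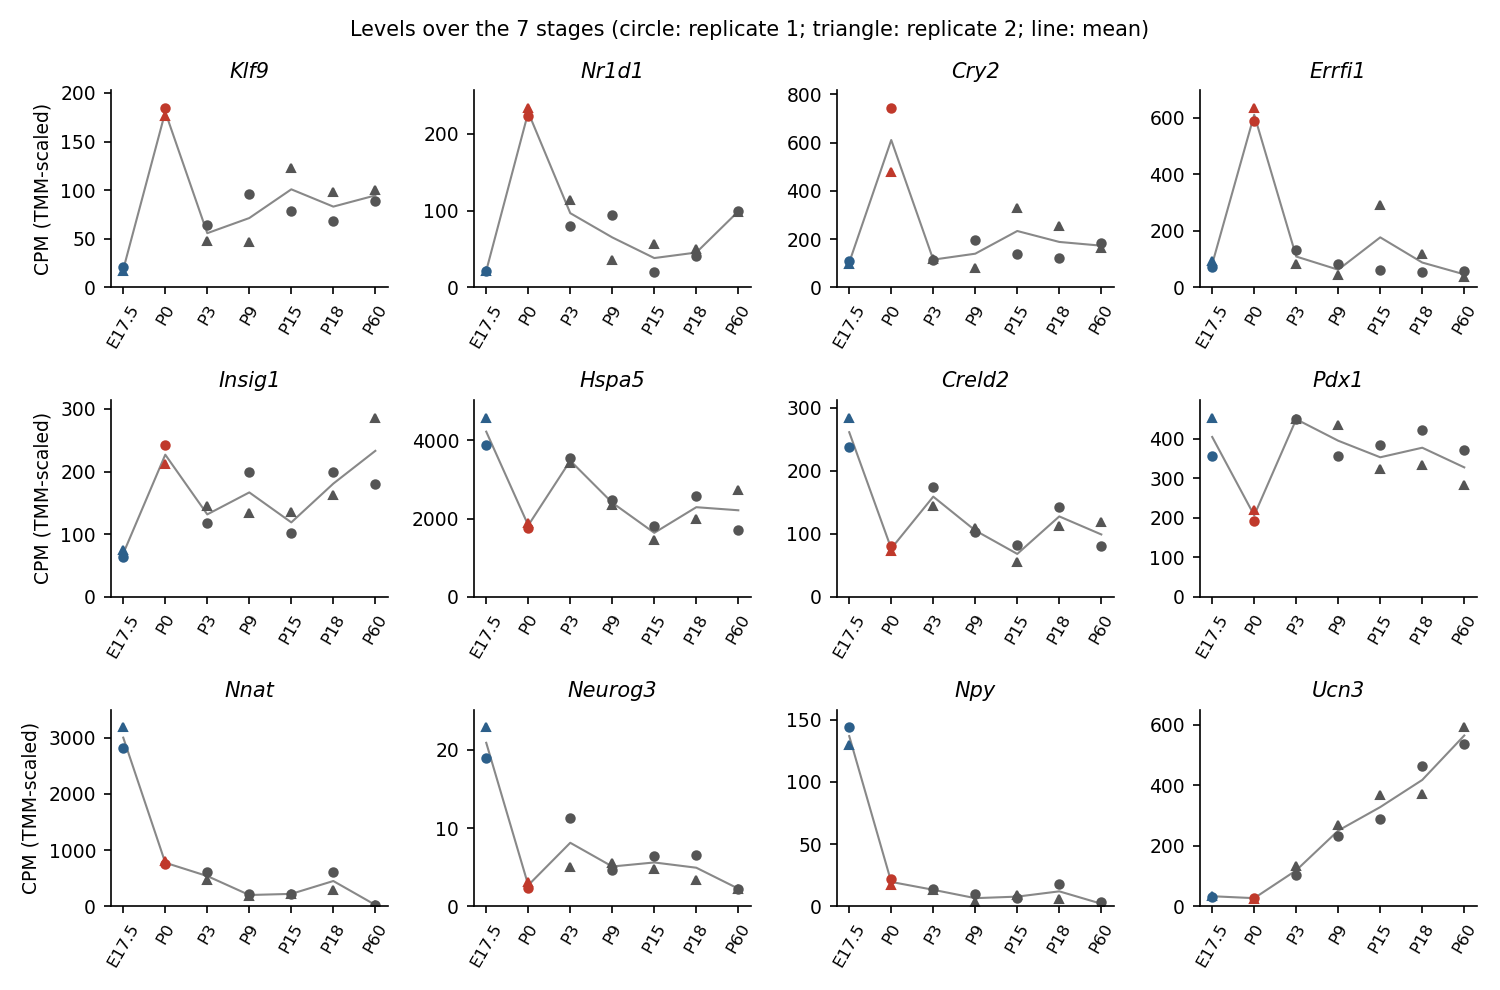
Levels of 12 genes in TMM-scaled CPM at the 7 stages in order of age, with circles for replicate 1, triangles for replicate 2 and a line through the means of the 2 libraries; E17.5 is blue, P0 red and the later stages grey. Klf9, Nr1d1, Cry2 and Errfi1 have their highest points at P0. Pdx1 has its lowest at P0, Nnat and Npy are highest at E17.5, and Ucn3 climbs after P0.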

How the data were processed

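Whole-number read counts per gene were deposited by the authors as tables of 14 bulk libraries and of single cells. TopHat2 2.1.0, HTSeq 0.6.0, DESeq 1.20.0 and the build GRCm38 (mm10) are named in the submitters' processing notes; the strand setting of the counting is not given in the sources used here, so genes that share exon bases with another gene (369 of the 1020 called) are uncertain.

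Genes passing edgeR's low-count filter were fitted with edgeR 4.0.16 (quasi-likelihood test, TMM scaling, R 4.3.3) on all 14 libraries with stage as the only term, and p-values were adjusted by the Benjamini-Hochberg method over all 16086 genes. SE stands for the standard error of a log2 change, derived as its absolute value divided by the square root of the quasi-likelihood F statistic. DESeq2 1.42.0 was an alternative, as were other scalings, no filter, the 4 libraries alone, acinar and Xist covariates, a replicate block and leaving out each library. The 92 spike-in rows were left out. Single-cell counts were summed per batch (538 of 917 cell columns used, the other 379 not). On simulated bulk data with 1 common spread for every gene, 9% of 2-fold and 90% of 4-fold changes were recovered over 15541 genes. Replicates differed by more than counting error, so the spread between libraries, and not total counts alone, limits the precision.

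The genes named were the 12 largest rises and the 12 largest falls among called genes of at least 20 CPM in the higher stage, the 2 called members of each list with the smallest p, fixed hormone and β cell genes, and the most abundant marker of each cell type. Some genes that this rule selects are not reported here. Other genes, such as Ogdhl, Cd200, Cry2, Hspa5, Per1, Hmox1 and Atp2a2, were chosen after their values were seen. The members and gene lists were chosen with earlier results of these data known. Over all genes, deviations of same-numbered P0 and E17.5 libraries correlated at -0.0853. Immediate early genes still split by replicate number at both stages, so a shared batch or handling cannot be told from that value. Coordinates are from GENCODE M21 and promoters from RefSeq, both on GRCm38.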

Additional observations from a re-analysis of the deposited data

How the results depend on the processing

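The direction of all 1020 called genes held with the acinar covariate. It also held when any 1 library was left out, which libraries without overlap all but ensure. The counts of calls held under some settings only. Against 479 higher and 541 lower genes in bulk, another scaling (RLE) gave 506 and 444, and library size alone 425 and 521. DESeq2 gave 1023 and 905, no low-count filter 1574 and 1066, the Xist covariate 905 and 869, and the acinar covariate 3 and 0. Leaving out 1 library gave 2 to 323 higher and 3 to 367 lower. The 4 libraries alone gave 686 and 371, which moved the share of higher genes among the called to 64.9%, against 47% in the fit of all libraries (59.6% with no filter). With the replicate block the counts were 469 and 530, and Cela3b, Rnase1 and Klf11 lost their call. Deviations of same-numbered libraries correlated at -0.139 to 0.427 over 21 stage pairs, above 0.1 in 7 of them. In single-cell batches, against 23 and 7, DESeq2 gave 195 and 87, no filter 110 and 36, the 6 batches alone 0 and 0 (933 genes at an unadjusted p under 0.05), and the sorted batches 3 and 0 (951 genes); leaving out 1 batch gave 12 to 20 and 1 to 7. The cause was not tested.

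Of the named genes called in bulk, none changed sign in any of the alternatives run. For the fits that leave out 1 library, their libraries without overlap all but fixed that outcome. Some genes that were not called did change sign. Over the fits that leave out 1 library the log2 change ran from -0.000405 to 0.305 for Ins1, -0.118 to 0.130 for Ins2, -0.258 to 0.0392 for Iapp, -0.175 to 1.30 for Gcg, -0.400 to 0.766 for Sst, and -0.497 to 0.246 for Ghrl. It ran from -0.315 to 1.06 for Mafa, -0.771 to 0.0272 for Nkx6-1, -0.218 to 0.637 for Mki67, -0.674 to 0.160 for Pyy, -0.132 to 0.728 for C1qa, and -0.915 to 2.66 for Hbb-bs. With the acinar covariate it was -0.0884 for Ins2, 0.00181 for Iapp, 0.169 for Ctrb1, -0.240 for C1qa and -1.72 for Hbb-bs. With the Xist covariate it was 0.659 for Ghrl, -0.547 for Mafa, -0.00184 for Mki67 and 0.247 for Xist. In simulated data with 2 libraries a stage, 9% of 2-fold changes were recovered. That simulation gave every gene 1 common spread, so the rate does not carry over to these data. Changes of that size may be missed, but how many, and the part of read depth in this, was not tested.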
